A study of Mus musculus with 6 samples.

Results

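The transition factors are 10 transcription factor genes that set or oppose the epithelial state: the repressors of epithelial genes Zeb1, Zeb2, Snai1, Snai2 and Twist1, and the epithelial factors Grhl1, Grhl2, Ovol1, Ovol2 and Elf3. They were chosen by name, and all probe sets annotated to exactly 1 of these symbols were taken, which gave 22 of 45037 probe sets and 10 of 18192 genes. Each gene is represented by its lead probe set, the one with the highest mean over the 6 arrays.

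The arrays come from a study that overexpressed EVI1, the zinc finger protein made from Mecom and found at high levels in some myeloid leukaemias. Both groups were Lin- (lineage-negative) haematopoietic progenitors of C57BL/6J background that carry rtTA, a doxycycline-dependent transactivator, at Rosa26. They were cultured in S3F11 medium, which holds mouse stem cell factor (50 ng/ml), mouse interleukin-3 (20 ng/ml), human Flt3 ligand (50 ng/ml) and human interleukin-11 (50 ng/ml). The EGFP-positive group (3 arrays) was transduced with pRRL.TET.EVI1.IRES.EGFP, a vector that makes EVI1 and EGFP from 1 transcript once doxycycline is present, and was sorted for high EGFP 20 hours after doxycycline (1 µg/ml). The EGFP-negative group (3 arrays) is called untransduced in its source label, while the design text describes a sort of negative or low cells, and the description of the EGFP-positive samples also says untransduced. Groups here follow the sample titles. The labels give the same doxycycline dose and time for the EGFP-negative group, so this treatment is shared by both. The labels do not give the age or sex of the animals or whether cells were pooled, and nothing says that replicates were separate cultures, so the spread behind the p-values is that of these samples and may be technical. In such sorted fractions, fewer cells of a type and less RNA per cell cannot be told apart.

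In epithelia the 2 sets of factors oppose each other. ZEB, SNAIL and TWIST proteins bind E-box sequences and recruit corepressors to genes of cell junctions, and are known for driving the epithelial-to-mesenchymal transition. Grainyhead-like (GRHL) and OVO-like (OVOL) proteins and the ETS factor ELF3 maintain epithelial genes, and GRHL2 and the OVOL proteins repress Zeb1 there. In blood, Zeb1 and Zeb2 are used without any epithelium: Zeb2 is needed for the output of progenitors and Zeb1 for T cell development.

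Values are log2 expression per probe set as deposited, and a difference is EGFP-positive minus EGFP-negative on the log2 scale, where 1 is a doubling. Tests are limma fits over all genes or all probe sets with Benjamini-Hochberg adjustment and a threshold of 0.05. The highest value of 27 probe sets for bacterial control transcripts on any array, 3.61, marks background. Arrays had medians of 5.11 to 5.14 and correlated across probe sets at 0.995 within the EGFP-negative group, 0.989 within the EGFP-positive group and 0.968 to 0.969 between groups. For Actb the signal of the 3' end minus that of the 5' end was 0.80 ± 0.05 (SD, n = 3) in the EGFP-negative group and 1.00 ± 0.03 in the EGFP-positive group, and for Gapdh it was 0.82 ± 0.02 and 1.06 ± 0.04. This excess, which reads RNA integrity and amplification, was larger in the EGFP-positive group, and its part in any difference below was not tested. Signals of different probe sets are not compared among the 10 genes, so no order of their levels is given. Only the summed signals of marker lists add different probe sets, and their largest terms are named as terms of the sum.

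Of the 10 transition factors, 3 passed the test: Ovol2 and Grhl1 were higher and Zeb1 was lower in EGFP-positive cells. That share, 30.0%, is near the 33.2% of all genes that passed (16.0% higher and 17.2% lower), so the count says nothing particular about these factors. The median difference was 0.37 over the 10 factors, or 0.03 with values under background set to it, beside 0.02 and 0 over all genes. For Snai1, Snai2 and Elf3 both group means lay under background, so 7 factors had a measurable level in at least 1 group. Without EGFP-positive replicate 2 the count was 5, because Twist1 and Snai1 then passed as higher.

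**Figure D1:**
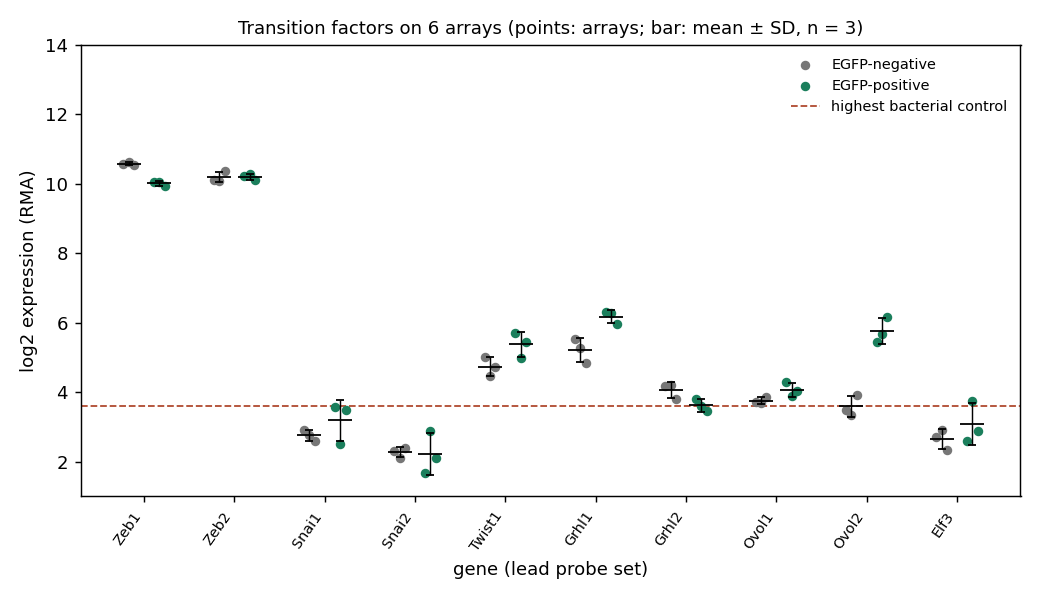
Log2 expression (vertical axis) of the lead probe set of each transition factor (horizontal axis) on the 3 EGFP-negative (grey) and 3 EGFP-positive (green) arrays, with mean ± SD bars; the dashed line is the highest bacterial control, 3.61. Ovol2 and Grhl1 have EGFP-positive points above all EGFP-negative points, Zeb1 has them below, and Snai1 and Snai2 lie under the line.

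Zeb1, the zinc finger and homeodomain repressor of Cdh1 and other junction genes, read 10.57, 10.63 and 10.53 in the EGFP-negative group and 10.04, 10.06 and 9.93 in the EGFP-positive group at its lead probe set, 1418926_at. The groups did not overlap, and the transcript stayed far above background in both. The difference was -0.57 (SE 0.08; limma, Benjamini-Hochberg adjusted p = 0.0028 over genes), or 1.48-fold lower. A further probe set, 1443005_at, read 6.96, 6.83 and 6.80 against 6.14, 6.41 and 6.09, a difference of -0.65 (SE 0.12; adjusted p = 0.011 over probe sets). The remaining Zeb1 probe sets did not pass. On 1446127_at the values were 7.12, 6.97 and 6.77 against 6.88, 7.59 and 7.38, with overlapping groups and a difference of 0.33 (adjusted p = 0.31), and 1420243_at lay under background on every array. With the mean of all 4 probe sets in place of the lead, the Zeb1 difference was -0.21 and did not pass (adjusted p = 0.14).

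Zeb2, the paralogue of Zeb1, did not pass at its lead probe set, 1434298_at. It read 10.11, 10.09 and 10.36 in the EGFP-negative group and 10.23, 10.27 and 10.11 in the EGFP-positive group, and the groups overlapped. The difference was 0.02 with a 95% interval of -0.24 to 0.27 (limma, adjusted p = 0.93 over genes). One of its 5 probe sets passed, 1454200_at, with 5.12, 4.99 and 4.97 against 5.43, 5.52 and 5.45, a rise of 0.44 (SE 0.09; adjusted p = 0.018 over probe sets). That call was lost without EGFP-negative replicate 2 (adjusted p = 0.073) or 3 (0.064). On 1422748_at the groups also did not overlap, at 8.12, 8.20 and 8.05 against 8.26, 8.65 and 8.61, but the difference of 0.38 had an adjusted p of 0.085. The other two gave differences of 0.06 (1456389_at) and 0.05 (1458941_at), with overlapping groups.

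Twist1, a basic helix-loop-helix factor of mesenchyme, read 5.0, 4.45 and 4.72 in the EGFP-negative group and 5.69, 4.98 and 5.45 in the EGFP-positive group. EGFP-positive replicate 2 lay inside the EGFP-negative range, and the difference of 0.65 (SE 0.22) did not pass (limma, adjusted p = 0.068 over genes). Without that array it was 0.85 with an adjusted p of 0.024. Snai1, a zinc finger repressor and early trigger of the transition, read 2.91, 2.76 and 2.60 against 3.57, 2.50 and 3.49, all under background, so no fold is given. Its difference of 0.43 (SE 0.29; adjusted p = 0.32) became 0.77 with an adjusted p of 0.0082 without EGFP-positive replicate 2, still under background. Snai2, also called Slug, ranged from 1.28 to 2.87 over both probe sets and all arrays, and its lead, 1447643_x_at, carries the suffix of probe sets that may cross-hybridise.

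Ovol2, a zinc finger repressor of mesenchymal genes that keeps epithelial cells epithelial, showed the largest difference of the 10 factors. Its probe set, 1449205_at, read 3.50, 3.34 and 3.93 in EGFP-negative arrays, of which 1 of 3 was above background, and 5.44, 5.68 and 6.16 in EGFP-positive arrays. Every EGFP-positive array was above every EGFP-negative one. The difference was 2.17 (SE 0.23; limma, adjusted p = 0.00085 over genes), and with the EGFP-negative arrays under background set to it Ovol2 was at least 4.12-fold higher. Its paralogue Ovol1 read 3.71, 3.68 and 3.86 against 4.28, 3.88 and 4.02 at 1419051_at, close to background in both groups. The groups did not overlap at Ovol1, as at 4 of the 10 factors and 48.2% of all genes, but the difference of 0.31 (SE 0.13) did not pass (adjusted p = 0.11), and its dimmer probe set 1419052_at gave -0.10.

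Grhl1, a grainyhead-like activator best known from epidermal desmosomes, rose 1.95-fold. It read 5.52, 5.27 and 4.84 in the EGFP-negative group and 6.30, 6.27 and 5.95 in the EGFP-positive group, and the groups did not overlap. The difference was 0.96 (SE 0.20; limma, adjusted p = 0.011 over genes). Grhl2, the family member most tied to simple epithelia and to repression of Zeb1, did not pass. Its lead probe set, 1427046_at, read 4.16, 4.21 and 3.81 against 3.82, 3.59 and 3.46, a difference of -0.44 (SE 0.15; adjusted p = 0.068), and both means of its other 3 probe sets lay under background. Without EGFP-negative replicate 3 the Grhl2 difference was -0.57 and passed as lower (adjusted p = 0.036). Elf3, an ETS factor of gut and other epithelia, read 2.69, 2.90 and 2.35 against 2.60, 3.76 and 2.87, where only EGFP-positive replicate 2 exceeded background, and its difference of 0.43 did not pass (adjusted p = 0.36).

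**Figure D2:**
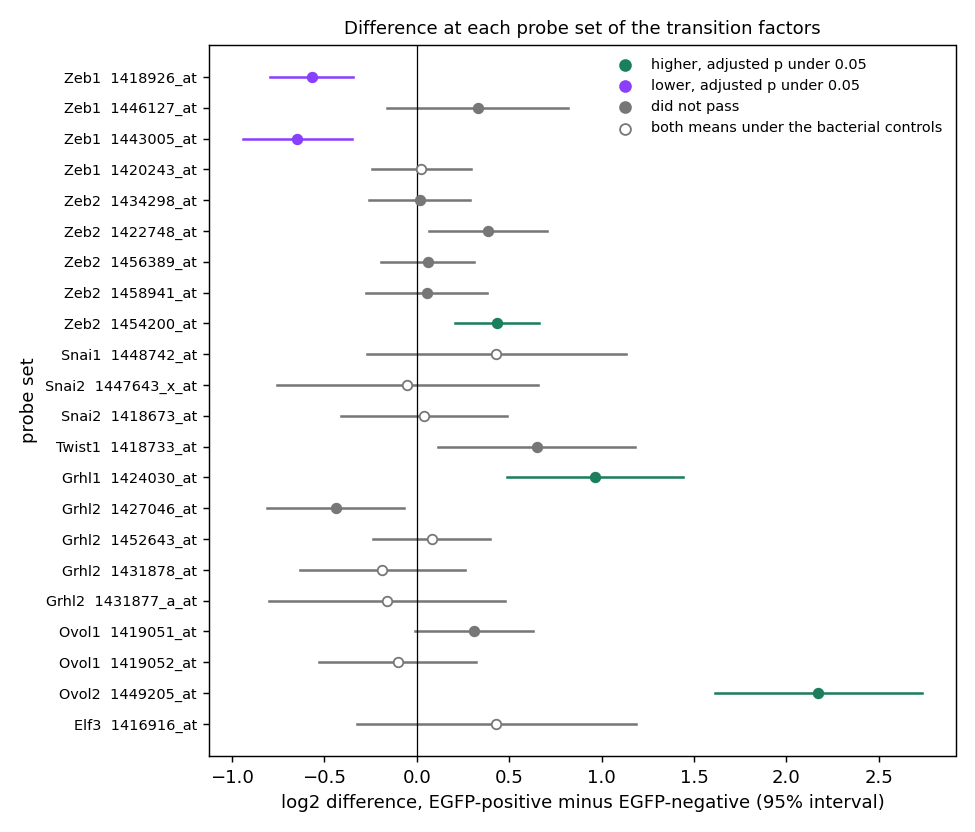
Difference between EGFP-positive and EGFP-negative arrays (horizontal axis, log2 scale, with 95% intervals from the limma fit over probe sets) at each of the 22 probe sets of the transition factors (vertical axis). Green marks the 3 that rose, purple the 2 that fell and open circles those with both means under the bacterial controls; 2 of the 4 Zeb1 probe sets fell and 1 of the 5 Zeb2 probe sets rose.

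Of the 22 probe sets, 5 passed (3 higher and 2 lower), beside 24.1% of all probe sets (11.6% higher and 12.6% lower). The groups did not overlap in 7 of the 22, beside 41.2% of all probe sets. The sequence before the start of the 2 factors that rose is shown here from the promoter table (RefSeq, mouse build GRCm38.p6, windows of 250 bases before to 50 after a transcript start, printed 5′ to 3′ on the strand of the gene). Motifs were searched on both strands: the E-box CACCTG bound by ZEB and SNAIL proteins, its shorter ZEB core CACCT, which every such E-box contains, the grainyhead core ACCGGT and AAGATAA, part of the sequence bound by the first zinc fingers of EVI1. None of these letters occurred in the Ovol2 window at chr2:144331313-144331612 (minus strand) or in the Grhl1 windows at chr12:24572037-24572336 and chr12:24580469-24580768 (plus strand), so nothing is in capitals.
Ovol2: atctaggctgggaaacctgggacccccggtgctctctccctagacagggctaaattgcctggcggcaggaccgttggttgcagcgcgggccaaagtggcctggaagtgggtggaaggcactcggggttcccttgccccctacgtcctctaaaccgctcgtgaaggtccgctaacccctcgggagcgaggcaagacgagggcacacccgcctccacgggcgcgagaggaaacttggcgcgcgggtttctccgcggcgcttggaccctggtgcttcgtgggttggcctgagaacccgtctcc
Grhl1, first start: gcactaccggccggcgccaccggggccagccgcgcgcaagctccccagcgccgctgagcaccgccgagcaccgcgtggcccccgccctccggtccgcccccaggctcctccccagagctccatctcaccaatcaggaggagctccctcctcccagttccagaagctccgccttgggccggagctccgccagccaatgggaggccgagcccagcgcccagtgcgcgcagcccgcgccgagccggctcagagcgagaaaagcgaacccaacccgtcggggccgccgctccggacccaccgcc
Grhl1, second start: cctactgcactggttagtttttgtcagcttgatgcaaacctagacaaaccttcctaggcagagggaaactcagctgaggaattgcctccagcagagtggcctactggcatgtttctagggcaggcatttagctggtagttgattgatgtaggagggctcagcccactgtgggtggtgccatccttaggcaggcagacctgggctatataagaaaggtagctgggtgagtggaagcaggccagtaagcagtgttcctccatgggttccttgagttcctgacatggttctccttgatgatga
Of all 32851 windows in the table, 20.2% hold CACCTG, 51.9% CACCT, 2.33% ACCGGT and 3.47% AAGATAA. Of the 10 windows of the 6 transition factors looked up, 2 hold CACCTG, 1 each for Snai1 and Elf3, and 6 hold CACCT. Windows on the chromosome of Zeb1 were not looked up for the factors or for the epithelial genes below, but they count among all windows.

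The genes whose arrays follow each of the 3 called factors most closely were taken by Pearson's r over the 6 arrays among all genes. For Zeb1 these were Slbp (r = 0.999), Wdr75 (0.999) and Flrt3 (0.998), for Grhl1 Tef (0.991), Agpat3 (0.991) and Nr6a1 (0.991), and for Ovol2 Sidt2 (1.000), Cipc (0.999) and Vars (0.999). As many as 1462 genes had an r over 0.95 with Zeb1, 1191 with Ovol2 and 257 with Grhl1, so the nearest genes do not stand apart from many others. The arrays lie in 2 groups, and these correlations are a description without a test.

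Relatives of the factors were read next. Of 13 measured, 3 rose and 1 fell (30.8%, beside 33.2% of all genes), with a median difference of 0.26. Tfcp2l1, a grainyhead-related factor of kidney duct and pluripotent cells, read 4.03, 4.56 and 4.52 against 6.70, 6.52 and 5.95 and rose by 2.02 (SE 0.24; limma, adjusted p = 0.0013). Grhl3, the epidermal barrier member of the GRHL family, passed as higher (2.03, adjusted p = 0.0058), but its EGFP-negative arrays (1.48, 1.19 and 2.21) and EGFP-positive replicates 1 and 2 (3.30 and 3.42) lay under background, and only EGFP-positive replicate 3 (4.25) exceeded it. Snai3, the SNAIL family member expressed in blood cells, fell by 0.97 (SE 0.18; adjusted p = 0.0069), from 6.25, 6.45 and 6.29 to 5.36, 5.69 and 5.03. Ubp1, a broadly expressed relative of Tfcp2, rose by 0.40 (adjusted p = 0.036), and this call was lost in 5 of the 6 fits that leave out 1 array, EGFP-negative replicate 3 being the exception, with the highest adjusted p, 0.115, when EGFP-negative replicate 2 was left out.

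Of 15 measured corepressors and modifiers used by ZEB and SNAIL proteins, 2 rose, 3 fell and 10 did not pass. The share called, 33.3%, is near the 33.2% of all genes, and the median difference was -0.19. Prmt5, an arginine methyltransferase, fell most, by 1.51 (SE 0.11; limma, adjusted p = 0.00020), from 8.63, 8.52 and 8.59 to 7.19, 6.87 and 7.15. Kdm1a, the histone demethylase LSD1 that binds the SNAG domain of SNAIL proteins, fell by 0.38 (adjusted p = 0.0095), and the deacetylase gene Hdac2 fell by 0.53 (0.021). Ajuba, a LIM protein that bridges SNAIL and its partners, rose by 1.25 (adjusted p = 0.00084), and Rcor1, the CoREST subunit that pairs with LSD1, by 0.34 (0.023). Ctbp1 and Ctbp2, the main ZEB corepressors, did not pass (-0.21 and 0.18, adjusted p = 0.12 and 0.35). Without EGFP-negative replicate 2 or 3 only 3 of the 15 passed, since Hdac2 (adjusted p = 0.076 and 0.075) and Rcor1 (0.063 and 0.074) did not. Rcor1 also missed without EGFP-negative replicate 1 (0.064) or EGFP-positive replicate 1 (0.062) or 2 (0.059).

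Of 19 genes that induce the repressors or control their stability, 3 rose and 3 fell (31.6%, beside 33.2% of all genes), with a median difference of 0.00. Tgfb1, the transforming growth factor that induces Snai1 and Zeb genes in epithelia, fell by 1.21 (SE 0.11; limma, adjusted p = 0.00048), from 10.21, 10.49 and 10.56 to 9.22, 9.17 and 9.23. Its receptor gene Tgfbr1 fell by 1.12 (adjusted p = 0.00051), though its most variable probe set gave -0.99 and did not pass (0.0504), and Hif1a, the hypoxia factor that induces Twist1, fell by 0.40 (0.0091). The Notch ligand gene Jag1 rose by 1.49 (adjusted p = 0.00057), from 6.47, 6.65 and 7.0 to 8.21, 8.17 and 8.21. Tgfb3 rose at least 3.27-fold (adjusted p = 0.0087), from values at background to 5.06, 6.14 and 4.77. Smad3, which carries TGF-beta signals to the nucleus, rose by 0.49 (adjusted p = 0.019) at its lead probe set, but its most variable one gave -0.20 (0.64), and the call was lost in 5 of the 6 fits that leave out 1 array, EGFP-positive replicate 2 being the exception, with the highest adjusted p, 0.067, when EGFP-negative replicate 1 was left out. Tgfbr2, Smad2, Notch1 and Hmga2 were among the 13 that did not pass, with differences of 0.09, -0.30, 0.13 and 0.00.

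Epithelial genes known as targets of these factors were mostly higher in EGFP-positive cells. Of 40 measured, 28 rose and 0 fell (70.0%, beside 16.0% of all genes that rose), and the median difference was 1.30, or 1.12 with values under background set to it. With limma, 0 of the 40 passed as lower, and among the 12 that did not pass Rab25 had the largest negative difference (-0.46, adjusted p = 0.11). The list was put together with earlier results of these arrays known, in which several of these genes had been seen to rise, so its count is not independent evidence of direction. Leaving out 1 array at a time, between 25 and 29 passed.

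Epcam, an adhesion molecule of epithelial cells, read 6.25, 6.25 and 6.45 in the EGFP-negative group and 10.91, 10.82 and 10.92 in the EGFP-positive group, a rise of 23.7-fold (4.57, SE 0.09; limma, adjusted p = 1.55e-05). Esrp1, an epithelial splicing regulator and a direct target of ZEB1 repression in cancer cells, went from 3.06, 3.19 and 2.96, under background, to 9.50, 9.92 and 9.47. Krt18, a keratin of simple epithelia, rose 9.0-fold, from 7.20, 7.16 and 7.25 to 10.37, 10.33 and 10.42. In none of these 3 genes did the groups come near each other. Cdh1, which encodes E-cadherin and is the classic target of all 5 repressors, was bright in both groups and rose by only 0.49 (SE 0.08; adjusted p = 0.0039), from 11.65, 11.62 and 11.73 to 12.17, 12.17 and 12.14. Esrp2, the paralogue of Esrp1, was also bright in both groups, at 11.40 ± 0.04 (SD, n = 3) without and 11.61 ± 0.08 with EGFP, and did not pass (0.21, adjusted p = 0.10). Junction genes that rose included the desmosomal plaque gene Dsp (3.47) and the tight junction gene Ocln (2.97), while Cldn8, Cgn and Marveld3 did not pass, with differences of 0.07, 0.05 and 0.18. Cldn8 and Marveld3 lay under background on every array and Cgn close to it (means 3.79 and 3.84), so a change in them could hardly be read.

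**Figure D3:**
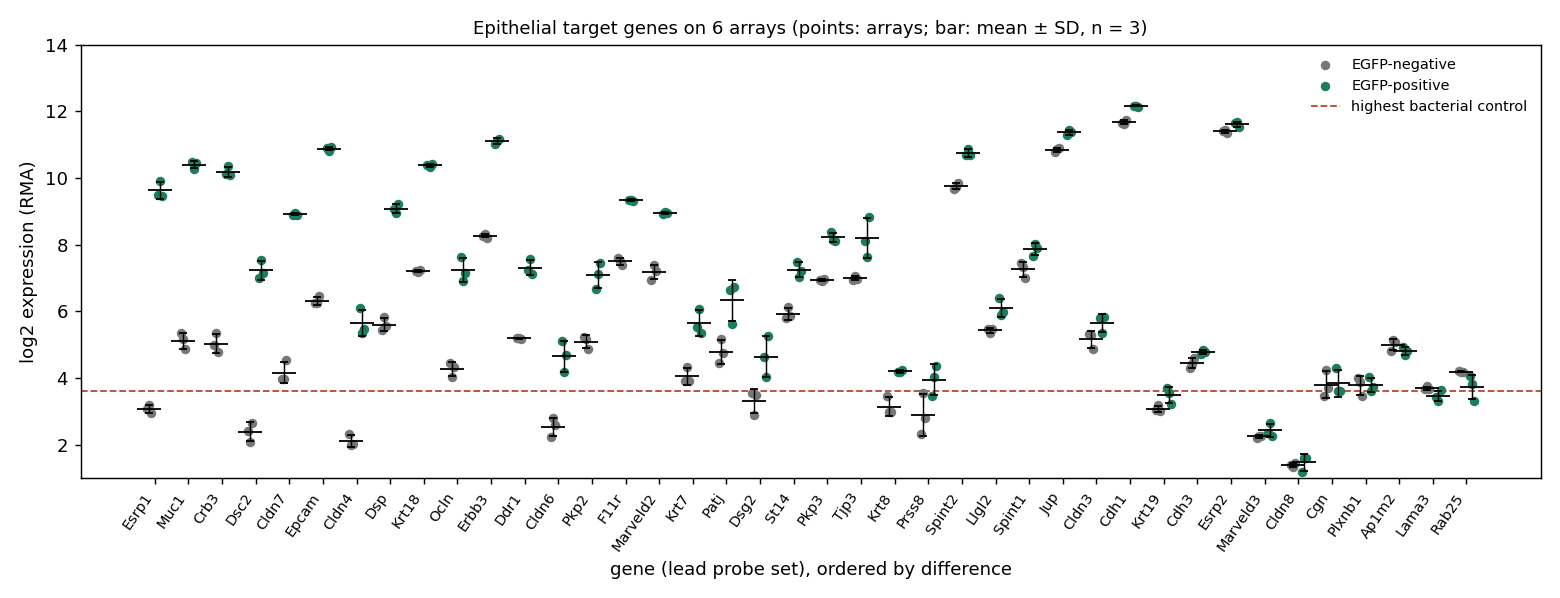
Log2 expression (vertical axis) of the 40 epithelial target genes (horizontal axis, ordered by difference) on the 3 EGFP-negative (grey) and 3 EGFP-positive (green) arrays, with mean ± SD bars and the highest bacterial control, 3.61, as a dashed line. Genes at the left, such as Esrp1 and Epcam, have widely separated groups, Cdh1 and Esrp2 are bright in both, and Cgn and Cldn8 are dim in both.

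Many promoters of these genes carry the E-box that ZEB and SNAIL proteins bind. Of the 19 genes that rose and had a window among those looked up, 17 have CACCTG in at least 1 window. It was in 21 of their 29 windows (72.4%), beside 20.2% of all windows. Of the 5 that did not pass and had a window looked up, 3 have it. Many of the listed genes became known as targets through such sites, so this share describes the list and was not tested. The windows of the 3 genes with the smallest p among those that rose and hold the motif are shown, with CACCTG (read as CAGGTG on the other strand) and the grainyhead core ACCGGT in capitals. They lie at chr17:87635729-87636028 (Epcam), chr15:102027966-102028265 (Krt18) and chr3:89228806-89229105 (Muc1), all on the plus strand.
Epcam: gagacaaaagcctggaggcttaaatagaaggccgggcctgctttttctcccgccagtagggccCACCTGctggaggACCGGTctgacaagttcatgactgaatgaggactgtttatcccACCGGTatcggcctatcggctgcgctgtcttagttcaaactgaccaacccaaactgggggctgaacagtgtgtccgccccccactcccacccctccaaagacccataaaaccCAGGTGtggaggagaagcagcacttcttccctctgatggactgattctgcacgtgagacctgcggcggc
Krt18: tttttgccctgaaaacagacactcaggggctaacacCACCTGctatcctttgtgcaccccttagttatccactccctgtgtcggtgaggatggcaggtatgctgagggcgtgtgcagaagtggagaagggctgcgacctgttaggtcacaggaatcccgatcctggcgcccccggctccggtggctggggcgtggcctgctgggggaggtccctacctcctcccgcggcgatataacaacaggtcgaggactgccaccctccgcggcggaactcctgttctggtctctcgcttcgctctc
Muc1: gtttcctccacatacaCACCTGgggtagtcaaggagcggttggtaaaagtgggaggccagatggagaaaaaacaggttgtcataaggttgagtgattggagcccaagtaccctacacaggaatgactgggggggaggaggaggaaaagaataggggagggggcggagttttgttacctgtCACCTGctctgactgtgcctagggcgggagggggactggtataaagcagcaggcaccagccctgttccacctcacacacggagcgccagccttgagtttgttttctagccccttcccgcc
The E-boxes begin 187 and 19 bases before the transcript start in Epcam, 214 in Krt18, and 234 and 70 in Muc1, and the 2 grainyhead cores of Epcam lie between its E-boxes. Muc1, a membrane mucin, read 5.33, 5.16 and 4.86 against 10.47, 10.27 and 10.45. A match of letters does not show that a factor binds there.

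Mesenchymal genes changed both ways, more of them up than down. Of 28 measured, 10 rose and 2 fell (42.9%, beside 33.2% of all genes, of which 16.0% were higher and 17.2% lower). The median difference was 0.17, or 0 with values under background set to it. Both means lay under background for 10 of the 28, among them Postn, which passed as higher at 2.66 and 3.58. Fn1, which encodes the matrix protein fibronectin, read 4.74, 3.96 and 4.45 against 9.15, 9.02 and 9.13 and rose 26.2-fold (4.71, SE 0.20; limma, adjusted p = 3.64e-05). Mmp2, a gelatinase, rose 10.4-fold, and Lox, a collagen cross-linking oxidase, 3.91-fold. Vim, the intermediate filament of mesenchymal and blood cells, was bright throughout and fell by 0.34 (adjusted p = 0.015), from 13.37, 13.35 and 13.36 to 13.06, 12.97 and 13.03, a call lost without EGFP-negative replicate 1 (adjusted p = 0.059) or 2 (0.058). Pdgfrb, a growth factor receptor of stromal cells, fell by 1.31 (0.0010). Cdh2, which encodes N-cadherin, lay under background on all arrays (1.36 to 2.28). Without EGFP-negative replicate 2 the count was 7 of 28.

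**Figure D4:**
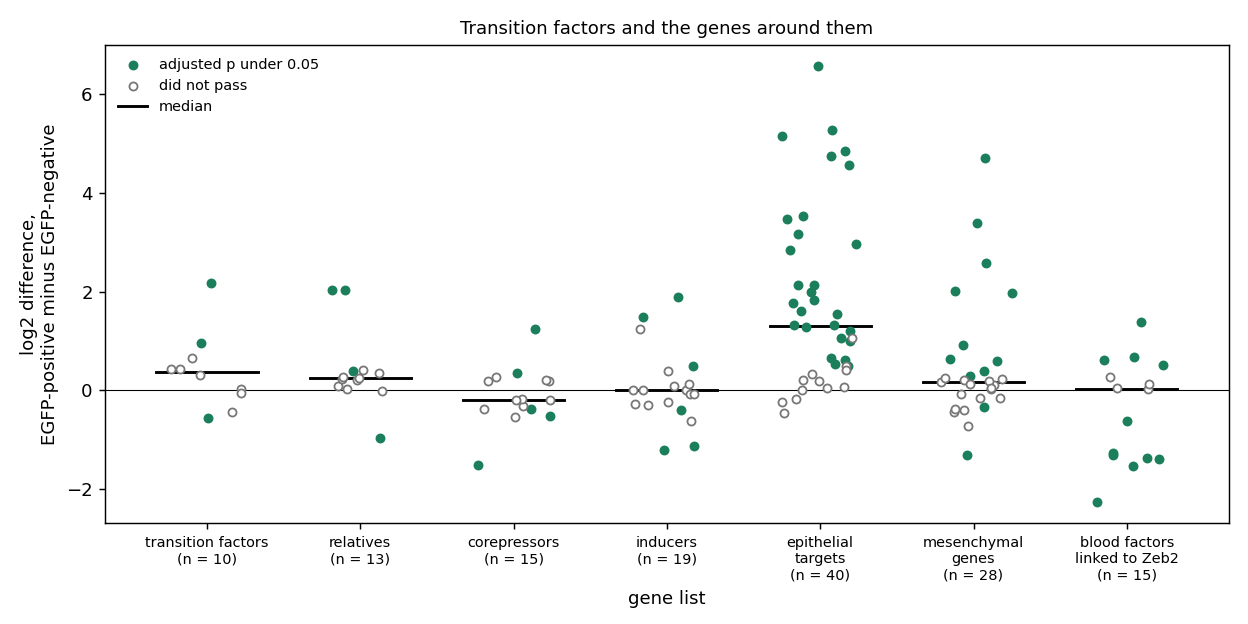
Difference between EGFP-positive and EGFP-negative arrays (vertical axis, log2 scale) for each gene of 7 lists (horizontal axis); filled points passed the test, open points did not, and bars are medians. The epithelial targets have a median of 1.30 and no filled point below 0, whereas the other lists have medians between -0.19 and 0.37 and filled points on both sides.

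Regulators that act with or downstream of Zeb2 in blood cells moved in both directions. Of 15 measured, 4 rose and 7 fell (73.3%, beside 33.2% of all genes), with a median difference of 0.02. Id2, an inhibitor of basic helix-loop-helix factors that Zeb2 represses in plasmacytoid dendritic cells, fell by 2.25 (SE 0.16; limma, adjusted p = 0.00017), from 11.13, 11.14 and 11.18 to 8.88, 9.20 and 8.60. Irf4 and Irf8, factors of lymphoid and dendritic cells, fell by 1.28 (adjusted p = 0.00013) and 1.30 (0.00015). Gata1, the erythroid and megakaryocyte factor, rose by 1.38 (8.04e-05), and Spi1, which encodes PU.1, by 0.51 (0.0063). Id3 rose by 0.61 (0.019), which was lost without EGFP-negative replicate 2 (adjusted p = 0.068) or 3 (0.065). Tcf4, which encodes the E protein that works with Zeb2 in plasmacytoid dendritic cells, did not pass (0.05, adjusted p = 0.65).

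Markers of other cell types were read beside these results. Blood progenitor markers were present in both groups: Ptprc, the pan-blood surface gene CD45, read 10.74 ± 0.11 (SD, n = 3) and 10.84 ± 0.08, and 9 of 9 measured progenitor markers were above background. Of these 9, 3 rose and 4 fell (77.8%, beside 33.2% of all genes). Cd34, a surface marker of progenitors, fell by 2.75 (SE 0.12; limma, adjusted p = 3.68e-05), or 6.71-fold, the receptor gene Kit by 0.98 (0.0021) and the progenitor factor Myb by 0.82 (0.00046), while Tal1, a blood and erythroid factor, rose by 1.58 (7.74e-05). Of 10 stromal markers, 2 rose and 1 fell (30.0%, near the 33.2% of all genes), and 3 had a mean above background in either group. Col1a1, a collagen gene, rose 4.01-fold (adjusted p = 0.0089) and Postn passed as higher under background, while Pdgfrb fell. The summed linear signal was 456 to 499 in EGFP-negative and 304 to 337 in EGFP-positive arrays. Its largest term was Pdgfrb (means 8.58 and 7.27), so the lower sum follows that gene and does not read the stromal list as a whole. Of 10 endothelial markers, 7 rose and 1 fell, beside 33.2% of all genes called, with summed signals of 1575 to 1697 and 2543 to 3120. The angiopoietin receptor gene Tek rose at least 43.9-fold (adjusted p = 9.64e-05) and its relative Tie1 4.44-fold (6.38e-05), and Kdr, Cdh5, Vwf, Eng and Esam also passed as higher. Cdh5 lay under background on every EGFP-negative array and exceeded it on 2 of 3 EGFP-positive ones. Pecam1 fell by 0.87 (0.0022), and Emcn and Cldn5 lay under background in both groups. Whether blood or endothelial cells gave the signals of this list was not tested. Of 10 keratinocyte and mammary markers, 5 rose and 1 fell, also beside 33.2%, with sums of 6402 to 6937 and 10721 to 11014. The largest terms of these sums were Cdh1 (means 11.67 and 12.16) and Perp (11.54 and 11.49), of which Perp did not pass. The largest differences in the list were those of Epcam (means 6.31 and 10.88) and Krt18 (7.20 and 10.37). Epcam, Krt18, Krt8 and Cdh1 also stand in the epithelial list. The basal keratin genes Krt5 (4.06 and 4.07) and Krt14 (3.06 and 3.49) were near or under background in both groups, and Trp63, the basal epithelial factor, was at least 2.10-fold lower in EGFP-positive arrays (adjusted p = 0.00070). The part of endothelial or other non-blood cells in the rises of epithelial and mesenchymal genes was not tested.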

How the data were processed

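RNA of 6 sorted cell samples was measured on 1 Affymetrix array each, after amplification with a 3' kit. The deposited values are log2 expression, made by the authors with RMA per the submitters' processing notes, with no version given in the sources used. RMA quantile-normalizes the arrays, so a change in total RNA cannot be read. Genes came from GEO's platform annotation: 34945 of 45037 probe sets had 1 gene, 932 several and 9160 none in the table used. Through Entrez identifiers 34741 matched RefSeq (GRCm38.p6), and 0 symbols changed.

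The limma fit (version 3.58.1, R 4.3.3; lmFit and eBayes) used all 6 arrays with no covariate and no filter and was two-sided, and the fit was tested on simulated data. Arrays under background (3.61) in the dimmer group were set to it and the fold is then a lower bound; where both means did, no fold is given. Arrays carry no read depth, and their number limits the precision. The members, lists and named genes (up to 3 higher and 3 lower per list by p, and Cdh1, Epcam, Esrp1, Vim and Cdh2) were chosen with earlier results of these data known; other names were added after their values were seen. No set test was made. Listed symbols without a probe set of their own were not analysed here. Alternatives were other scalings, filters, variance models, array weights, probe set choices, the replicate block and leaving out each array.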

Additional observations from a re-analysis of the deposited data

How the results depend on the processing

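Zeb1, Grhl1 and Ovol2 kept their direction under all alternatives that tested them, and their calls under all but 1, the mean of all probe sets for Zeb1 (-0.21, adjusted p = 0.14); adjusted p ran from 6.3e-05 to 0.14 for Zeb1, 0.0057 to 0.038 for Grhl1 and 7.8e-05 to 0.0059 for Ovol2 (limma). With the most variable probe set the called rise of Smad3 (0.49) turned to -0.20 and the uncalled difference of Ovol1 (0.31) to -0.10, neither passing, and the fall of Tgfbr1 missed the threshold (-0.99, adjusted p = 0.0504). The rises of Rcor1 (0.42, adjusted p = 0.080) and Ubp1 (0.40, 0.061) missed it there too. With the mean of all probe sets Smad3 gave 0.09 and did not pass (0.66). After further quantile normalization Grhl2 passed as lower (-0.45, adjusted p = 0.049). Differences near 0 changed sign leaving out 1 array: Zeb2 (-0.034 to 0.10) and Snai2 (-0.38 to 0.21). Leaving out 1 array gave 3 to 5 transition factors, 4 to 7 of their probe sets, 3 to 7 corepressors, 7 to 12 mesenchymal genes and 4432 to 5664 genes past the threshold.

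With only the brighter genes, fewer were tested, and 5405 of all 9096 passed. Beside that share, those past the threshold were 1 of 2 transition factors, 2 of 5 relatives, 18 of 18 epithelial genes and 9 of 14 corepressors. This filter used the mean over all 6 arrays, so a gene dim in EGFP-negative cells could enter through its EGFP-positive arrays. Esrp1 (means 3.07 and 9.63) did so, while dim genes that did not rise, such as Cldn8, were dropped. The 18 of 18 is therefore no separate support for a rise of the epithelial genes. With eBayes trend 9 of 15 corepressors passed, beside 6839 of all 18192 genes, and the cause was not tested. Replicate numbers did not pair the arrays (correlations of same-numbered deviations 0.01, -0.01 and 0.00, and not every array correlated best with its own number). With the replicate block 5 of 10 transition factors passed, beside 4900 of all 18192 genes. Twist1 (adjusted p = 0.015) and Grhl2 (0.0496) were added, while Ubp1 (0.092), Rcor1 (0.058), Vim (0.060) and the Zeb2 probe set 1454200_at (0.067) were lost. That Zeb2 call was also lost with eBayes trend (0.088). Another Zeb2 probe set, 1422748_at, was uncalled in the main fit but passed as higher with eBayes trend (adjusted p = 0.045). It also passed with only the brighter probe sets (0.040) and without EGFP-positive replicate 1 (0.025). Of 489 values of 31 named genes outside the 10 factors, 459 kept direction and side of the threshold, 28 lost the call, 1 gained it and 1 reversed.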
